A study of Drosophila melanogaster with 6 samples.

Results

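Cytochrome P450 genes were examined in intestines of Drosophila melanogaster with an RNAi line against 9G8, an SR protein that acts in splicing, under the driver Mex-Gal4. The controls carried the same driver with a double-stranded RNA against GFP, a jellyfish protein that flies lack. The P450 genes were all rows of the count files whose gene identifier carries an Ensembl symbol of the form Cyp, a number, lower-case letters and a number. This gave 84 of 17411 genes, of which 2, Cyp6t2Psi and Cyp6a15Psi, are annotated as pseudogenes. One further gene model in the files has an older identifier at the same start, end and strand as Cyp6a21, and its values are given apart from the 84.

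The 9G8-RNAi group (genotype Mex-Gal4>9G8RNAi) and the GFP-dsRNA group (genotype Mex-Gal4>GFPdsRNA) held 3 libraries each, with the replicate letters A, B and D. Mex-Gal4 drives expression in the midgut's absorptive enterocytes, while the samples were not sorted for these cells, as far as the labels tell, so cells without the driver may have been measured with them. The labels used here give neither the sex, age and diet of the flies nor whether replicates came from separate flies, and p-values therefore measure the spread between these libraries. The source label of the GFP-dsRNA samples reads control fat bodies, and a yolk driver appears in the series' design text, whereas titles and genotypes name Mex-Gal4 throughout. By that tissue label the groups would differ in tissue as well as genotype, and tissue and genotype cannot be told apart from the labels. Enterocyte genes were abundant in all 6 libraries. Fat body genes were mixed: of 12 markers, the larval genes Lsp2, Lsp1alpha, Lsp1beta and Fbp1 stayed under 1 CPM in each library, while Yp3 ranged over 29.7 to 258 CPM in 9G8-RNAi and 33.3 to 110.1 CPM in GFP-dsRNA libraries, and apolpp over 21.3 to 52.2 CPM in 9G8-RNAi and 6.61 to 49.3 CPM in GFP-dsRNA libraries. A further larval gene of the list, Lsp1gamma, ranged over 0.398 to 1.51 CPM in 9G8-RNAi and 1.14 to 2.61 CPM in GFP-dsRNA libraries. CPM are counts scaled to a common library size.

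P450 enzymes are heme proteins that use electrons from NADPH to insert oxygen into small molecules. In insects most belong to the CYP3 and CYP4 clans, which sit in the endoplasmic reticulum and receive electrons from the reductase Cpr and from cytochrome b5. They handle plant toxins, insecticides, fatty acids and pheromones. A smaller mitochondrial clan works with ferredoxins and the reductase dare, and it holds both detoxifying enzymes and enzymes of ecdysteroid hormone synthesis. Many P450 genes lie in clusters of neighbouring copies, and copies in some of them, Cyp12d1 and Cyp6a17 included, are known to differ in number between fly strains. In insects the midgut, the Malpighian tubules and the fat body are known as main sites of P450 expression.

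Total counts per library ran from 26216430 to 66562756. Levels are CPM adjusted by TMM factors, a method that sets libraries on a common scale through the bulk of their genes, and are listed in the order A, B, D. The target gene x16, which encodes 9G8, measured 6.36, 11.5 and 6.59 CPM in 9G8-RNAi and 8.29, 7.14 and 20.02 CPM in GFP-dsRNA libraries. These groups overlapped, with a log2 fold change of -0.53 ± 0.46 (SE) and an edgeR adjusted p of 0.92. The 8 enterocyte markers summed to 87017 to 174399 CPM in 9G8-RNAi and 30341 to 294024 CPM in GFP-dsRNA libraries. The 12 fat body markers summed to 169.7 to 647 CPM in 9G8-RNAi and 194 to 445 CPM in GFP-dsRNA libraries. Markers of ovary and of testis and male tract summed to at most 0.590 CPM in any library. GFP-dsRNA replicate A stood apart: there 8 visceral muscle markers summed to 3561 CPM, against at most 622 CPM in the other libraries. The hindgut genes byn and otp measured 44.1 and 7.42 CPM there, against at most 1.63 and 0.373 CPM in the other libraries, while bowl did not stand out.

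As a whole, the P450 family overlapped between the groups in its level. Its 84 genes summed to 1642, 1379 and 1650 CPM in 9G8-RNAi and 1733, 1197 and 1776 CPM in GFP-dsRNA libraries. A few genes carried most of this sum. On the scale of CPM per kilobase of exon, which allows levels of different genes to be compared, Cyp6a23 had the highest mean over the 6 libraries, 111, followed by Cyp6d5 with 108, Cyp12a4 with 78.4, Cyp9f2 with 76.3 and Cyp9b2 with 68.9. The library ranges of these 5 genes overlapped, from 39.02 to 108 for Cyp9b2 and from 58.8 to 149 for Cyp6a23, so their order is not fixed by these data. A step down came after them, with Cyp4ad1 at 30.4, Cyp6d4 at 26.6, Cyp4e2 at 22.8, Cyp311a1 at 21.3 and Cyp28d1 at 20.9. Together these 10 genes made up 56.2 to 59.9% of the P450 sum in CPM in 9G8-RNAi and 61.7 to 69.1% in GFP-dsRNA libraries.

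**Figure D1:**
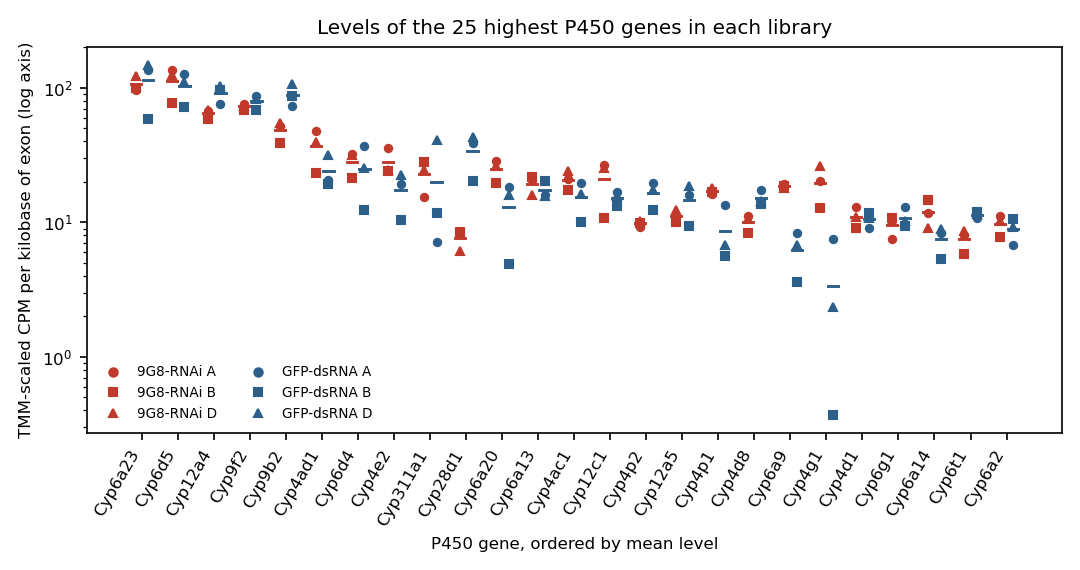
Levels of the 25 P450 genes with the highest means, in TMM-scaled CPM per kilobase of exon on a log axis, for 9G8-RNAi (red, left) and GFP-dsRNA (blue, right), with 1 point per library and a bar for the group mean. The first 5 genes average at least 68.9 CPM per kilobase, and Cyp28d1, Cyp6a9, Cyp4p1 and Cyp4g1 are among those whose 2 groups lie apart.

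The CYP4 clan held a larger share of this sum in 9G8-RNAi than in GFP-dsRNA libraries, by a few percentage points. CYP4 genes made up 24.2 to 25.5% in 9G8-RNAi and 16.99 to 19.1% in GFP-dsRNA libraries of the P450 sum, and these ranges did not overlap. Shares of 1 sum move against each other. Without Cyp4g1, whose libraries spread widely, the CYP4 shares were 22.03 to 23.4% in 9G8-RNAi and 16.9 to 18.8% in GFP-dsRNA libraries. The CYP3 clan held 61.9 to 64.3% in 9G8-RNAi and 64.7 to 66.8% in GFP-dsRNA libraries. These ranges nearly touched, and the CYP3 share was not computed without single genes. The mitochondrial clan held 11.3 to 12.5% in 9G8-RNAi and 14.03 to 18.04% in GFP-dsRNA libraries. The lower mitochondrial share turned on Cyp12a4 and Cyp49a1: without Cyp12a4 the shares overlapped, at 4.34 to 5.86% in 9G8-RNAi and 4.60 to 7.71% in GFP-dsRNA libraries, and without Cyp49a1 they also overlapped, at 11.2 to 12.4% in 9G8-RNAi and 12.3 to 18.01% in GFP-dsRNA libraries. The 4 CYP2 genes held 0.143 to 0.273% in 9G8-RNAi and 0.119 to 0.485% in GFP-dsRNA libraries. In bulk samples such as these, fewer cells of a type and less RNA per cell cannot be told apart.

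Single genes were compared between 9G8-RNAi and GFP-dsRNA with edgeR's quasi-likelihood test, fitted over the 9285 genes that passed a filter on low counts, with Benjamini-Hochberg adjustment over those genes and a threshold of 0.05. Of the 84 P450 genes 72 passed the filter, and 12 were too low to be tested. In 9G8-RNAi libraries 1 P450 gene was called higher, Cyp12d1-d, a mitochondrial enzyme, and 1 lower, Cyp6a17, a microsomal enzyme of the CYP3 clan. Over all tested genes 0.0862% were called higher and 0.0323% lower. The median log2 fold change was 0.08 over the tested P450 genes and -0.07 over all tested genes. A positive fold change was found for 39 of the 72, against 44.3% of all tested genes (28 of the 72 with total counts only, against 25.8%), and an absolute log2 fold change above 1 for 17, or 23.6%, against 10.4%.

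The 3 libraries of one group all lay on one side of the 3 of the other for 26 of the 72 P450 genes, or 36.1%, where 8.61% of all tested genes did so. Of these 26, 12 were higher and 14 lower in 9G8-RNAi, against 4.81% and 3.79% of all tested genes. Cyp12d1-d, Cyp6g2 and Cyp6a15Psi passed the filter on low counts through 1 group only, and without them 23 of 69 lay apart. The share over all tested genes was not computed without genes of that kind, so the 23 of 69 has no matching background. The TMM factors ran from 0.847 to 1.17 in 9G8-RNAi and from 0.635 to 1.68 in GFP-dsRNA libraries. With libraries scaled by total counts instead of TMM the number was 12 of 72, or 16.7%, against 4.08% of all tested genes, and 11 of these 12 were among the 26. These 12 were 6 higher and 6 lower, against 2.5% and 1.58%. At an unadjusted p under 0.05, edgeR had 8 of the 72 higher and 9 lower, against 2.75% and 1.79% of all tested genes (4.53% in either direction). DESeq2, a second count model, called 4 of the 76 P450 genes it adjusted higher and 4 lower, where it called 0.606% and 0.347% of all such genes. With no filter on low counts, edgeR had 3 higher and 3 lower, against 0.21% and 0.0989% of all genes. Those called higher by DESeq2 were Cyp12d1-d, Cyp6a8, Cyp6a9 and Cyp6w1, and those called lower were Cyp6a17, Cyp6g2, Cyp28d1 and Cyp28a5. The 2 edgeR calls depended on the libraries: leaving out any 1 of the 3 9G8-RNAi libraries left neither past the threshold.

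**Figure D2:**
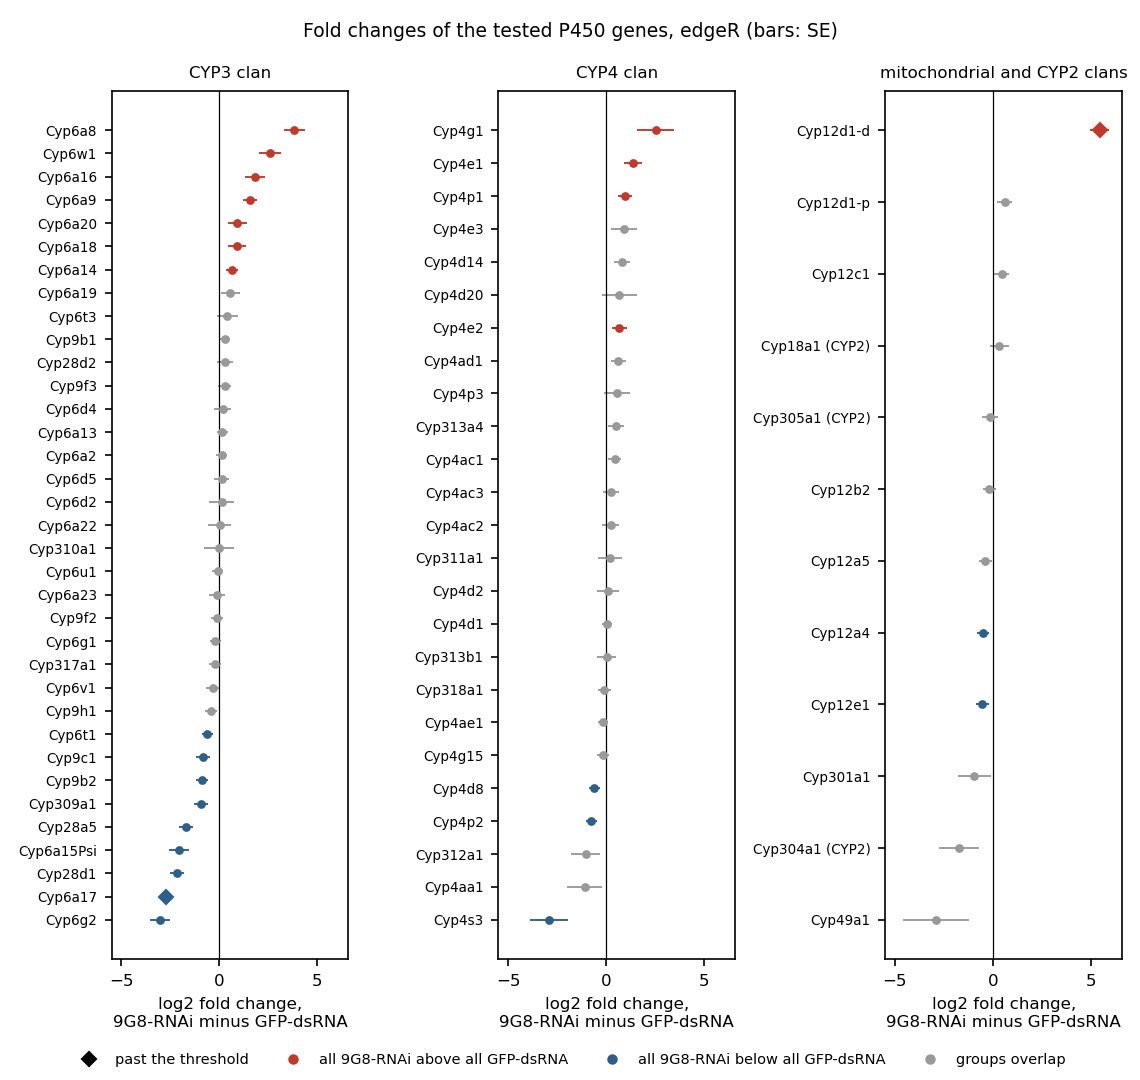
Log2 fold changes (9G8-RNAi minus GFP-dsRNA) with SE of the 72 tested P450 genes by clan, from the edgeR fit over all genes. Diamonds mark Cyp12d1-d and Cyp6a17, past the threshold, red and blue points the other genes whose 3 9G8-RNAi libraries lie all above or all below the 3 GFP-dsRNA libraries, and grey points genes whose groups overlap.

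The mitochondrial clan had 9 members, all tested, with 1 higher, 0 lower and 8 not past the threshold, and a median log2 fold change of -0.38. The gene called higher was Cyp12d1-d (FBgn0053503, 2R:11123658-11125647, minus strand), an enzyme linked to DDT resistance and caffeine metabolism and known to be induced by phenobarbital. It measured 5.21, 3.04 and 4.70 CPM in 9G8-RNAi and 0.136, 0.0570 and 0.0986 CPM in GFP-dsRNA libraries, from 131, 111 and 365 counts against 6, 3 and 2 counts. The gene was thus at a few counts in each GFP-dsRNA library and at a few CPM in each 9G8-RNAi library, and it passed the filter through the 9G8-RNAi group only. The test gave a log2 fold change of 5.45 ± 0.49 (SE; 95% interval 4.33 to 6.57; edgeR adjusted p 0.010). The call ended when any 9G8-RNAi library was left out. With replicate A, B or D omitted in turn, the log2 fold changes were 5.30, 5.65 and 5.38 and the edgeR adjusted p 0.060, 0.072 and 0.066, and limma-voom gave an adjusted p of 0.070.

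Its neighbour Cyp12d1-p (FBgn0050489, 2R:11117225-11121884, minus strand) is a near-identical copy on the same strand, with which reads may be shared. Cyp12d1-p measured 4.06, 3.68 and 4.96 CPM in 9G8-RNAi and 4.11, 1.61 and 2.56 CPM in GFP-dsRNA libraries, with a log2 fold change of 0.62 ± 0.38 (SE) and overlapping groups. Cyp12d1-d made up 56.2, 45.3 and 48.7% in 9G8-RNAi and 3.21, 3.41 and 3.70% in GFP-dsRNA libraries of the counts of the pair. The counts of the pair were thus split about evenly in the 9G8-RNAi libraries and held almost entirely by Cyp12d1-p in the GFP-dsRNA libraries. The number of copies in the fly lines of the groups was not tested, and this design cannot tell it apart from the RNAi. The exons of Cyp12d1-d total 1812 bases and those of Cyp12d1-p 4482, so an even split of counts is not an even level per kilobase. Since both genes are read from the same library, the share of counts does not depend on how libraries are scaled. The difference of 46.6 percentage points had an exact two-sided permutation p of 0.1, the smallest that 3 against 3 libraries allow. The level of the pair together was 9.27, 6.72 and 9.65 CPM in 9G8-RNAi and 4.25, 1.67 and 2.66 CPM in GFP-dsRNA libraries, without overlap between the groups.

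The most abundant gene of the clan was Cyp12a4, linked to resistance against the growth regulator lufenuron, with 115.001, 100.2 and 116 CPM in 9G8-RNAi and 129, 163 and 176 CPM in GFP-dsRNA libraries. These groups did not overlap, but the log2 fold change of -0.49 ± 0.31 (SE) did not pass (edgeR adjusted p 0.92). Its neighbour Cyp12a5 measured 20.3, 18.3 and 22.6 CPM in 9G8-RNAi and 28.9, 17.2 and 33.9 CPM in GFP-dsRNA libraries, and the groups overlapped. Cyp12a4 made up 84.98, 84.6 and 83.7% in 9G8-RNAi and 81.7, 90.4 and 83.8% in GFP-dsRNA libraries of this pair, with overlapping groups (exact two-sided permutation p 0.9). Cyp12c1, with 50.2, 20.3 and 47.6 CPM in 9G8-RNAi and 31.8, 25.1 and 29.4 CPM in GFP-dsRNA libraries, and Cyp12b2, with 3.94, 4.97 and 4.21 CPM in 9G8-RNAi and 5.93, 5.83 and 3.11 CPM in GFP-dsRNA libraries, also overlapped. Cyp12e1 lay lower in each 9G8-RNAi library, at 2.51, 2.99 and 2.84 CPM in 9G8-RNAi and 5.63, 3.15 and 3.30 CPM in GFP-dsRNA libraries, with a log2 fold change of -0.54 ± 0.32 (SE) that did not pass. The exons of Cyp12b2 overlap those of Jabba, and its counts are uncertain. The 2 members outside the Cyp12 family, Cyp49a1 and Cyp301a1, were highest in a single library and are described further on.

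In the CYP3 clan 35 of 39 members were tested, with 0 higher, 1 lower and 34 not past the threshold, and a median log2 fold change of 0.02. The groups did not overlap for 7 higher and 9 lower genes, or 20% and 25.7% of those tested, against 4.81% and 3.79% of all tested genes. The 9 lower genes include Cyp6g2 and Cyp6a15Psi, which passed the filter on low counts through the GFP-dsRNA group only, where they were high. The Cyp6a subfamily accounted for 6 of the 7 that were higher and 2 of the 9 that were lower, and all its 13 members were tested. Fold changes were positive for 10 of the 13, against 44.3% of all tested genes, and for 7 of the 13 with total counts only, against 25.8%. A cluster on chromosome arm 2R holds 7 of the 13, from Cyp6a22 to Cyp6a8, with Cyp317a1 9301 bases further on.

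The gene called lower was Cyp6a17 (FBgn0015714, 2R:14873953-14875739, plus strand), known for a role in temperature preference and in tolerance to pyrethroids. It measured 1.63, 1.54 and 2.02 CPM in 9G8-RNAi and 13.1, 7.31 and 13.7 CPM in GFP-dsRNA libraries. The 3 9G8-RNAi libraries lay close together, far under the lowest GFP-dsRNA library. This was a log2 fold change of -2.71 ± 0.34 (SE; edgeR adjusted p 0.038). Without single libraries the log2 fold change ran from -2.95 to -2.48 and the edgeR adjusted p from 0.043 (without GFP-dsRNA replicate B) to 0.34 (without 9G8-RNAi replicate B). It passed only without GFP-dsRNA replicate B. With total counts only the edgeR adjusted p was 0.062.

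The next gene, Cyp6a23, begins 89 bases downstream of Cyp6a17 on the same strand and is its close copy, so reads may be shared. Cyp6a23, among the most abundant P450 genes here, measured 171, 176 and 217 CPM in 9G8-RNAi and 238, 104 and 263 CPM in GFP-dsRNA libraries, with overlapping groups and a log2 fold change of -0.10 ± 0.42 (SE). Cyp6a17 made up 0.943, 0.866 and 0.922% in 9G8-RNAi and 5.23, 6.59 and 4.94% in GFP-dsRNA libraries of the counts of the pair, without overlap (exact two-sided permutation p 0.1, the smallest possible). On the other side of Cyp6a17, 247 bases away, Cyp6a22 measured 1.39, 3.59 and 1.81 CPM in 9G8-RNAi and 3.84, 0.855 and 2.02 CPM in GFP-dsRNA libraries, and the groups overlapped. Of these 3 neighbours, Cyp6a17 alone had groups that lay apart. Here too the number of copies in the fly lines was not tested and cannot be told apart from the RNAi.

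Further along the cluster the levels of Cyp6a9, Cyp6a20 and Cyp6a8 were higher in each 9G8-RNAi library. Cyp6a8 (FBgn0013772, 2R:14887171-14889010, minus strand), an enzyme that hydroxylates lauric acid and is induced by caffeine and barbiturates, measured 18.9, 26.03 and 12.3 CPM in 9G8-RNAi and 2.20, 0.665 and 1.09 CPM in GFP-dsRNA libraries. The lowest 9G8-RNAi library was more than 5-fold above the highest GFP-dsRNA library, a log2 fold change of 3.85 ± 0.53 (SE) that did not pass in edgeR (adjusted p 0.058). Over the alternatives run, its adjusted p ranged from 5.4e-10 with DESeq2 to 0.34 without 9G8-RNAi replicate B. Without GFP-dsRNA replicate A the log2 fold change was 4.46 and passed (edgeR adjusted p 0.043). Cyp6a9 measured 37.8, 36.8 and 35.1 CPM in 9G8-RNAi and 16.3, 7.12 and 13.3 CPM in GFP-dsRNA libraries, with the 9G8-RNAi libraries within a narrow band. The log2 fold change of 1.58 ± 0.35 (SE) passed in DESeq2 (adjusted p 0.009) and not in edgeR (adjusted p 0.27). Cyp6a20, a gene linked to aggressive behaviour, measured 51.95, 35.1 and 46.995 CPM in 9G8-RNAi and 32.8, 8.89 and 28.7 CPM in GFP-dsRNA libraries, a log2 fold change of 0.93 ± 0.48 (SE) that did not pass in either model.

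The groups overlapped for the remaining genes of the stretch. The gene model at the position of Cyp6a21, between Cyp6a20 and Cyp6a8, measured 18.1, 10.9 and 16.5 CPM in 9G8-RNAi and 12.1, 8.57 and 12.1 CPM in GFP-dsRNA libraries, with a log2 fold change of 0.47 ± 0.31 (SE). Cyp6a19 stayed under 1 CPM in all libraries, and its exons overlap those of Cyp6a9 on the other strand, so its few reads cannot be placed without the strand setting of the counting. Cyp317a1, at the far end, measured 8.79, 7.30 and 9.82 CPM in 9G8-RNAi and 13.1, 7.996 and 8.68 CPM in GFP-dsRNA libraries, with overlapping groups. Within this cluster of 8 P450 genes, log2 fold changes thus spanned -2.71 to 3.85, over a distance of 13218 bases between the starts of the 2 genes. Cyp6a8 made up 33.4, 41.4 and 25.9% in 9G8-RNAi and 11.9, 8.54 and 7.56% in GFP-dsRNA libraries of the summed counts of Cyp6a8 and Cyp6a9, without overlap between the groups.

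**Figure D3:**
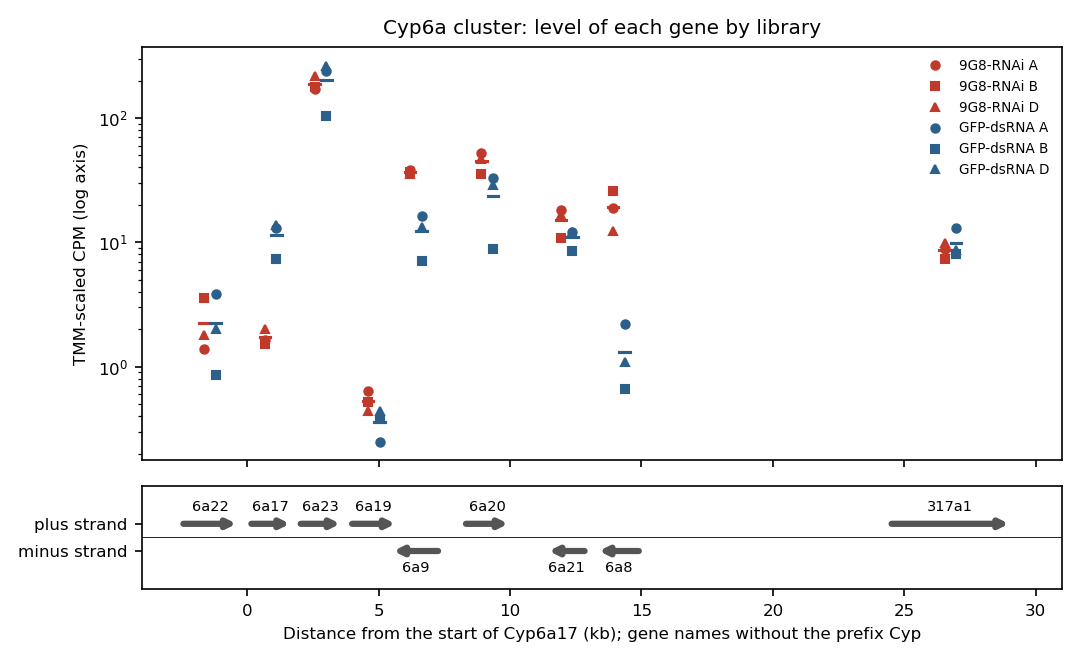
Levels of the genes of the Cyp6a cluster in TMM-scaled CPM (log axis) against their distance from the start of Cyp6a17, for 9G8-RNAi (red, left) and GFP-dsRNA (blue, right), with 1 point per library, a bar for the group mean, and gene positions and strands drawn below. The groups lie apart at Cyp6a17 (lower in 9G8-RNAi) and at Cyp6a9, Cyp6a20 and Cyp6a8 (higher), with Cyp6a23 in between overlapping.

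Other Cyp6a genes lie elsewhere. Cyp6a16 on 2L measured 1.27, 4.25 and 1.81 CPM in 9G8-RNAi and 0.590, 0.703 and 0.789 CPM in GFP-dsRNA libraries, and Cyp6a18 on 3R 12.8, 25.8 and 14.3 CPM in 9G8-RNAi and 11.6, 4.20 and 12.2 CPM in GFP-dsRNA libraries. Both were higher in each 9G8-RNAi library, with log2 fold changes of 1.82 ± 0.51 and 0.92 ± 0.47 (SE), and neither passed (edgeR adjusted p 0.56 and 0.92). For Cyp6a16 it was 1.17 without 9G8-RNAi replicate B. Cyp6a2, long known for its induction by phenobarbital and its link to DDT resistance, measured 18.6, 13.1 and 17.1 CPM in 9G8-RNAi and 11.4, 17.6 and 15.6 CPM in GFP-dsRNA libraries, and the groups overlapped. In the group of Cyp6a14, Cyp6a15Psi and Cyp6a13, Cyp6a14 was higher in each 9G8-RNAi library (34.8, 43.8 and 26.95 CPM in 9G8-RNAi and 24.6, 15.8 and 26.4 CPM in GFP-dsRNA libraries), while the pseudogene Cyp6a15Psi, under 1 CPM in all libraries, was lower (log2 fold change -2.03 ± 0.51, SE, edgeR adjusted p 0.39). Cyp6a13 beside them overlapped, with a log2 fold change of 0.16 ± 0.28 (SE). Cyp6a15Psi passed the filter on low counts through the GFP-dsRNA group only.

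Outside Cyp6a, the Cyp28 family was lower in 9G8-RNAi libraries in 2 of its 3 tested genes. Cyp28d1 (2L), a gene linked to nicotine resistance, measured 13.2, 13.8 and 9.92 CPM in 9G8-RNAi and 63.2, 33.05 and 69.5 CPM in GFP-dsRNA libraries. The lowest GFP-dsRNA library was more than 2-fold above the highest 9G8-RNAi library, and the log2 fold change was -2.16 ± 0.37 (SE; edgeR adjusted p 0.12, DESeq2 adjusted p 0.00013). Its neighbour Cyp28d2, also linked to nicotine resistance, measured 1.51, 1.78 and 0.953 CPM in 9G8-RNAi and 1.02, 1.04 and 1.38 CPM in GFP-dsRNA libraries, with overlapping groups, and Cyp28d1 held 89.7, 88.6 and 91.2% in 9G8-RNAi and 98.4, 96.9 and 98.1% in GFP-dsRNA libraries of the counts of the pair. Cyp28a5, elsewhere on 2L, measured 6.72, 5.71 and 9.74 CPM in 9G8-RNAi and 23.05, 17.8 and 30.8 CPM in GFP-dsRNA libraries, a log2 fold change of -1.69 ± 0.34 (SE; edgeR adjusted p 0.22, DESeq2 adjusted p 0.004). The exons of Cyp28d1 overlap those of CG7742, so part of its counts may belong there.

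Cyp6g2 was lower and Cyp6w1 higher in each 9G8-RNAi library. Cyp6g2 measured 0.159, 0.219 and 0.167 CPM in 9G8-RNAi and 0.863, 1.96 and 1.73 CPM in GFP-dsRNA libraries, a log2 fold change of -3.04 ± 0.51 (SE; edgeR adjusted p 0.11, DESeq2 adjusted p 0.00029). It passed the filter on low counts through the GFP-dsRNA group only, with 4, 8 and 13 counts in 9G8-RNAi libraries. Its neighbour Cyp6g1, the gene behind a widespread form of DDT resistance, measured 15.6, 22.4 and 21.2 CPM in 9G8-RNAi and 26.8, 19.6 and 21.3 CPM in GFP-dsRNA libraries, with overlapping groups. Exons of the 2 genes overlap, and Cyp6g2 is by far the lower, so its counts are uncertain. It made up 1.01, 0.970 and 0.782% in 9G8-RNAi and 3.12, 9.08 and 7.51% in GFP-dsRNA libraries of the counts of both. Cyp6w1 on 2R measured 6.56, 7.87 and 4.83 CPM in 9G8-RNAi and 2.02, 0.513 and 0.592 CPM in GFP-dsRNA libraries, with a log2 fold change of 2.60 ± 0.56 (SE; edgeR adjusted p 0.25, DESeq2 adjusted p 0.00087). Without GFP-dsRNA replicate A this was 3.53, with an edgeR adjusted p of 0.038. Without any other single library it ran from 2.30 to 2.77 and did not pass (edgeR adjusted p 0.34 to 0.997).

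Among the abundant CYP3 genes, Cyp9b2 was lower in each 9G8-RNAi library, with 86.3, 65.04 and 91.6 CPM in 9G8-RNAi and 122, 144 and 179 CPM in GFP-dsRNA libraries and a log2 fold change of -0.88 ± 0.33 (SE; edgeR adjusted p 0.92). The neighbouring Cyp9b1 measured 6.96, 8.48 and 9.04 CPM in 9G8-RNAi and 6.90, 5.28 and 7.69 CPM in GFP-dsRNA libraries, with overlapping groups. The others overlapped between groups as well. Cyp6d5, an enzyme linked to caffeine metabolism, measured 222, 127 and 205 CPM in 9G8-RNAi and 208, 119 and 180.02 CPM in GFP-dsRNA libraries, and Cyp9f2 134, 121 and 129.9 CPM in 9G8-RNAi and 152, 121 and 146 CPM in GFP-dsRNA libraries. For Cyp6d4 the values were 60.2, 39.7 and 58.9 CPM in 9G8-RNAi and 69.3, 23.3 and 47.6 CPM in GFP-dsRNA libraries. The log2 fold changes of these 3 were 0.13 ± 0.38, -0.13 ± 0.30 and 0.18 ± 0.43 (SE), and those of Cyp6d5 and Cyp6d4 changed sign with total counts only (-0.15 and -0.16), where the median over all tested genes was -0.33 instead of -0.07.

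The CYP4 clan, whose mammalian relatives hydroxylate fatty acids, had 25 of 32 members tested, with 0 past the threshold in either direction in edgeR or DESeq2 and a median log2 fold change of 0.24. At an unadjusted p under 0.05, edgeR had 3 of the 25 higher and 2 lower, against 2.75% and 1.79% of all tested genes. The groups did not overlap for 4 higher and 3 lower genes, or 16% and 12% of those tested, against 4.81% and 3.79% of all tested genes. The genes of the Cyp4e, Cyp4p, Cyp4ac and Cyp4ad subfamilies held 14.8 to 16.9% in 9G8-RNAi and 9.52 to 11.6% in GFP-dsRNA libraries of the P450 sum, without overlap. These subfamilies were singled out after their values were seen. All 3 Cyp4e genes had positive fold changes, with TMM and with total counts. Cyp4e2, the most abundant, measured 68.02, 45.5 and 46.4 CPM in 9G8-RNAi and 36.8, 19.8 and 43.01 CPM in GFP-dsRNA libraries, higher in each 9G8-RNAi library. Cyp4e3 measured 24.2, 19.3 and 16.3 CPM in 9G8-RNAi and 12.9, 1.82 and 16.8 CPM in GFP-dsRNA libraries, with overlapping groups. Their log2 fold changes were 0.68 ± 0.37 and 0.93 ± 0.67 (SE), and that of Cyp4e3 was 1.53 without GFP-dsRNA replicate D and 0.42 without GFP-dsRNA replicate B. Cyp4e1 beside Cyp4e2 measured 2.35, 3.62 and 2.63 CPM in 9G8-RNAi and 1.41, 0.532 and 1.43 CPM in GFP-dsRNA libraries, a log2 fold change of 1.36 ± 0.46 (SE), but its exons overlap those of the maltase gene Mal-A1, which makes its counts uncertain. Cyp4ad1, the third gene of this group of neighbours, measured 91.1, 44.03 and 75.5 CPM in 9G8-RNAi and 39.5, 36.7 and 60.5 CPM in GFP-dsRNA libraries, with overlapping groups.

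The Cyp4p neighbours differed in direction. Cyp4p1 measured 27.1, 28.5 and 30.3 CPM in 9G8-RNAi and 22.5, 9.48 and 11.4 CPM in GFP-dsRNA libraries, higher in each 9G8-RNAi library, and Cyp4p2, the next gene, 16.5, 17.6 and 18.2 CPM in 9G8-RNAi and 34.9, 22.1 and 30.8 CPM in GFP-dsRNA libraries, lower in each. Their log2 fold changes were 0.98 ± 0.37 and -0.74 ± 0.28 (SE), and neither passed (edgeR adjusted p 0.92 for both). Cyp4p1 made up 62.1, 61.8 and 62.4% in 9G8-RNAi and 39.3, 29.97 and 27.1% in GFP-dsRNA libraries of the counts of the pair. The 9G8-RNAi libraries lay within 1 percentage point of each other, and the more abundant copy was Cyp4p1 in each of them and Cyp4p2 in each GFP-dsRNA library. Cyp4p3, the third of the group, had a log2 fold change of 0.55 ± 0.67 (SE) and overlapping groups. By contrast the 3 neighbouring genes Cyp4ac1, Cyp4ac2 and Cyp4ac3 had log2 fold changes from 0.24 to 0.44, with overlapping groups, and with total counts only 1 of the 3 was negative. Cyp4ac1 measured 34.7, 29.2 and 40.3 CPM in 9G8-RNAi and 32.9, 16.7 and 27.1 CPM in GFP-dsRNA libraries. Cyp4aa1, elsewhere on 2R and with exons that overlap Strn-Mlck, stayed low, at 0.278, 0.0274 and 0.335 CPM in 9G8-RNAi and 0.931, 0.247 and 0.197 CPM in GFP-dsRNA libraries. Its log2 fold change was -1.09 with all libraries and -0.10 without GFP-dsRNA replicate A.

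Besides Cyp4s3, described further on, 4 tested genes not described so far were lower in each 9G8-RNAi library, and none passed in edgeR or DESeq2. Cyp9c1 measured 1.79, 1.01 and 1.66 CPM in 9G8-RNAi and 3.27, 2.58 and 2.07 CPM in GFP-dsRNA libraries, and Cyp4d8 17.6, 13.03 and 16.7 CPM in 9G8-RNAi and 27.2, 21.4 and 22.8 CPM in GFP-dsRNA libraries. Cyp309a1 measured 2.27, 3.26 and 3.73 CPM in 9G8-RNAi and 8.51, 4.06 and 5.23 CPM in GFP-dsRNA libraries, and Cyp6t1 14.4, 10.4 and 15.3 CPM in 9G8-RNAi and 19.2, 21.2 and 20.8 CPM in GFP-dsRNA libraries. Their log2 fold changes ran from -0.94 for Cyp309a1 to -0.59 for Cyp4d8. The groups overlapped for Cyp6d2, Cyp6t3, Cyp6u1, Cyp6v1, Cyp9f3, Cyp9h1 and Cyp310a1 of the CYP3 clan, with log2 fold changes from -0.41 to 0.41. They also overlapped for Cyp4ae1, Cyp4d1, Cyp4d2, Cyp4d14, Cyp4d20, Cyp311a1, Cyp313a4, Cyp313b1 and Cyp318a1 of the CYP4 clan, with log2 fold changes from -0.15 to 0.83. Exons of Cyp9b1, Cyp9c1, Cyp4s3, Cyp301a1 and Cyp317a1 are among those that overlap exons of other annotated genes, so their counts are uncertain too.

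The neighbours were surveyed over the whole family. With at most 10000 bases between one gene and the next, 45 of the 84 genes fell into 16 groups, 13 of which held at least 2 tested genes. In 3 of these, the Cyp6a cluster, Cyp4p and the group of Cyp6a14, some genes lay wholly higher and others wholly lower in 9G8-RNAi. In the group of Cyp6a14 the lower gene was the pseudogene Cyp6a15Psi, which passed the filter on low counts through the GFP-dsRNA group only. Neighbouring genes outside the P450 family were not surveyed. For 10 pairs, 2 of them planned with the tests and 8 chosen after their values were seen, the share of one gene in the counts of both was compared between the groups. In 8 of the 10 the groups did not overlap, each with an exact two-sided permutation p of 0.1 (0.125 adjusted over the 10 pairs), so no pair could pass at this number of libraries. Pairs outside the P450 family were not compared, so the count of 8 has no share over all genes to be set against. Cyp12a4 with Cyp12a5 and Cyp309a1 with Cyp309a2 overlapped. The smallest separated difference was that of Cyp9f2, which made up 90.3, 90.3 and 90.4% in 9G8-RNAi and 91.997, 94.5 and 91.5% in GFP-dsRNA libraries of the counts of Cyp9f2 and Cyp9f3.

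**Figure D4:**
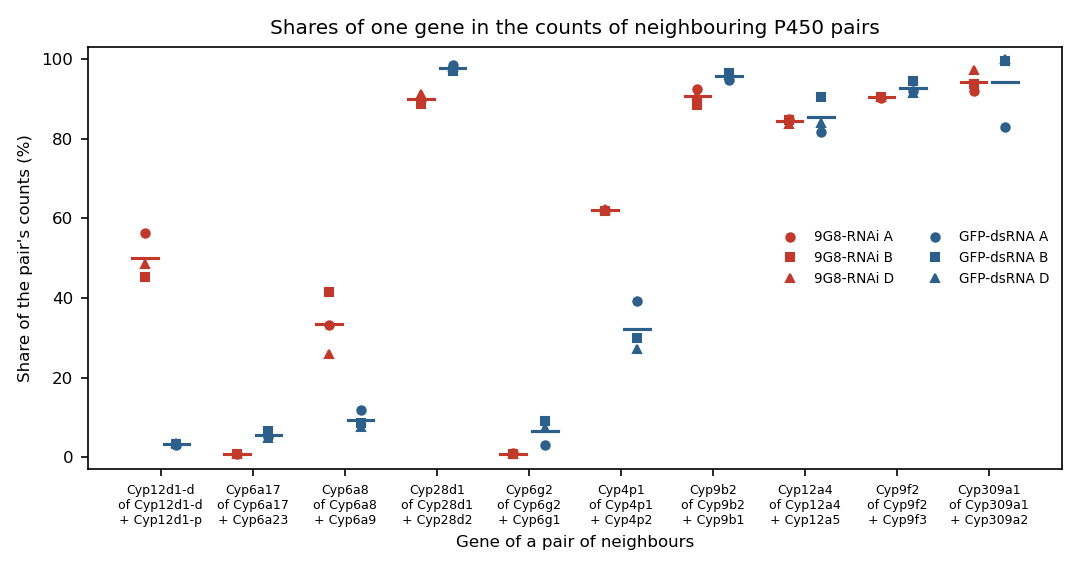
Share (percent) of the first-named gene in the summed counts of a pair of neighbouring P450 genes, for 9G8-RNAi (red, left) and GFP-dsRNA (blue, right), with 1 point per library and a bar for the group mean. Cyp12d1-d differs most, with 50.1% on average in 9G8-RNAi and 3.44% in GFP-dsRNA libraries, followed by Cyp4p1 with 62.1% and 32.1%.

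Cyp4g1 (X) makes cuticular hydrocarbons from aldehydes and is known for its expression in oenocytes, cells of the body wall. It measured 46.1, 29.1 and 59.9 CPM in 9G8-RNAi and 17.03, 0.836 and 5.33 CPM in GFP-dsRNA libraries. The 9G8-RNAi libraries lay above the GFP-dsRNA libraries, which spread widely among themselves, and the log2 fold change of 2.54 ± 0.95 (SE) did not pass (edgeR adjusted p 0.92). Without GFP-dsRNA replicate A it was 3.82 (edgeR adjusted p 0.24), and without GFP-dsRNA replicate B 2.03 (edgeR adjusted p 0.87). Some other oenocyte genes were also higher in each 9G8-RNAi library, at low levels, as were 4.81% of all tested genes. The elongase gene eloF measured 3.54, 2.63 and 2.27 CPM in 9G8-RNAi and 0.204, 0.0570 and 0.543 CPM in GFP-dsRNA libraries, and the fatty acid synthase genes FASN2 and FASN3 stood at 0.795 to 2.25 and 0.994 to 3.01 CPM in 9G8-RNAi, against 0.395 to 0.703 and 0.345 to 0.456 CPM in GFP-dsRNA libraries. The fatty acyl reductase gene FarO overlapped, at 0.756, 0.521 and 1.35 CPM in 9G8-RNAi and 0.772, 2.66 and 0.592 CPM in GFP-dsRNA libraries. Its log2 fold change was -0.62. Cpr, Hnf4, Desat1 and Desat2 also overlapped, with log2 fold changes of -0.11, -0.01, 0.11 and 0.20. Of the 8 oenocyte markers 5 had positive fold changes, and 0 passed in edgeR. DESeq2 called 2 of them higher, eloF (adjusted p 0.00014) and FASN3 (adjusted p 0.015). None was at 0, and the list summed to 457, 386 and 459.8 CPM in 9G8-RNAi and 442, 353 and 436 CPM in GFP-dsRNA libraries, a sum carried by Desat1, which is expressed in many tissues. The part of oenocytes in the Cyp4g1 values was not tested. Cyp4g15, the relative known from the nervous system, measured 3.06, 3.54 and 2.25 CPM in 9G8-RNAi and 3.68, 2.43 and 3.75 CPM in GFP-dsRNA libraries, with overlapping groups.

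Several P450 genes stood out in a single library. Of the P450 genes with a mean of at least 0.3 CPM, 7 were more than 3-fold higher in one library than in the next, and in all 7 that library was GFP-dsRNA replicate A. Cyp49a1 measured 1.95, 1.70 and 2.41 CPM in 9G8-RNAi and 44.9, 0.399 and 0.543 CPM in GFP-dsRNA libraries, and its log2 fold change was -2.92 with all libraries and 2.09 without GFP-dsRNA replicate A. Without that library Cyp49a1 was thus the higher in 9G8-RNAi (edgeR adjusted p 0.20). Cyp4s3 measured 0.557, 0.384 and 0.592 CPM in 9G8-RNAi and 9.81, 1.01 and 0.888 CPM in GFP-dsRNA libraries, Cyp304a1 0.358, 0.905 and 0.463 CPM in 9G8-RNAi and 4.86, 0.323 and 0.444 CPM in GFP-dsRNA libraries, and Cyp301a1, an enzyme needed for normal cuticle, 0.517, 0.521 and 0.579 CPM in 9G8-RNAi and 2.27, 0.152 and 0.690 CPM in GFP-dsRNA libraries. Their log2 fold changes without GFP-dsRNA replicate A were -0.92, 0.60 and 0.41, against -2.93, -1.71 and -0.94 with all libraries. The other 3 were Cyp312a1, Cyp309a2 and Cyp313a1, which reached 1.43, 1.75 and 1.39 CPM there. None of these genes passed the threshold in any setting run.

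In the same library the hindgut regulator byn was also high, and the receptor gene Lgr1 measured 95.6 CPM, against at most 3.45 CPM. The muscle myosin gene Mhc measured 844 CPM there. Of the 6 hindgut markers 5 were highest in this library, all but bowl, and NKCC, Lgr1 and Irk2 had been put on that list because they stood out there in an earlier analysis of these libraries, so their values, and the list's sum of 749.96 CPM there against at most 61.6 CPM elsewhere, are no independent sign. The part of hindgut or muscle tissue in these P450 values was not tested.

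**Figure D5:**
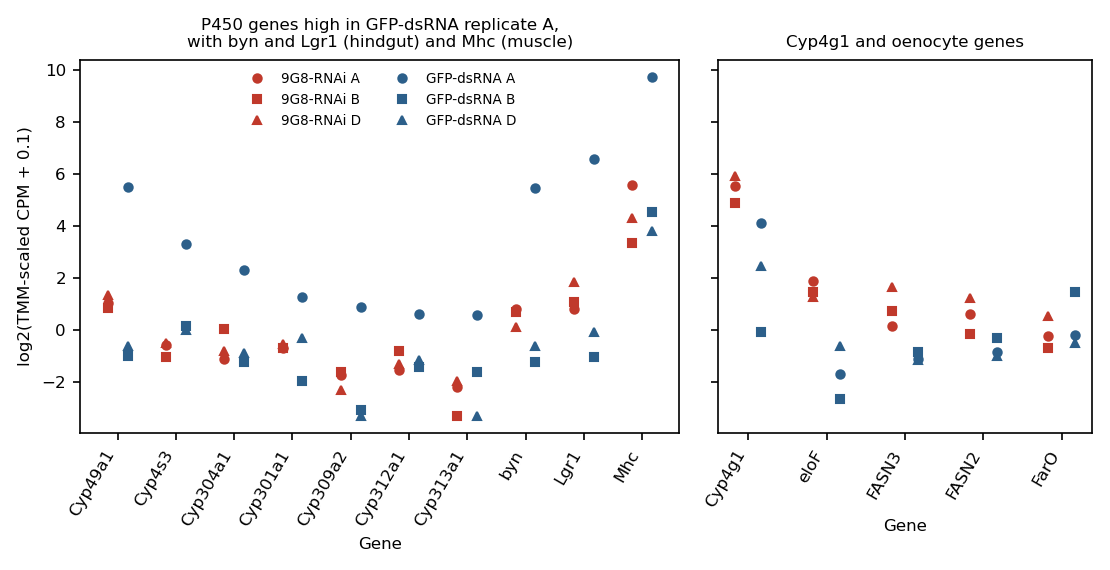
Levels as log2(TMM-scaled CPM + 0.1) in each library for the 7 P450 genes that stood out in GFP-dsRNA replicate A, beside byn, Lgr1 and Mhc (left panel), and for Cyp4g1 beside oenocyte genes (right panel), with 9G8-RNAi in red on the left of each gene and GFP-dsRNA in blue on the right. GFP-dsRNA replicate A (blue circle) is the top point of each gene in the left panel, and the 3 9G8-RNAi points of Cyp4g1, eloF, FASN3 and FASN2 lie above the 3 GFP-dsRNA points.

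The Malpighian tubules, which open into the gut, were checked with 9 markers. They summed to 254, 426 and 371 CPM in 9G8-RNAi and 265, 236 and 231 CPM in GFP-dsRNA libraries, with overlapping groups. Uro, the urate oxidase found in tubules, measured 34.8, 98.4 and 61.7 CPM in 9G8-RNAi and 73.9, 20.1 and 45.7 CPM in GFP-dsRNA libraries. Of the 9, 6 had positive fold changes and 0 passed in edgeR or DESeq2. Among them salt and Oatp58Dc were higher in each 9G8-RNAi library, as were 4.81% of all tested genes. For salt the values were 99.5, 182 and 116 CPM in 9G8-RNAi and 53.99, 22.5 and 55.4 CPM in GFP-dsRNA libraries. Irk1, Oatp58Db and ClC-a had negative log2 fold changes, of -0.14, -0.55 and -0.28, with overlapping groups. None of the 9 was at 0. The part of tubule tissue in the higher Cyp12d1-d, Cyp6a8 and Cyp6w1 values was not tested.

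The CYP2 clan was low throughout. Cyp18a1, which inactivates ecdysteroids, measured 0.557, 0.439 and 0.3604 CPM in 9G8-RNAi and 0.295, 0.380 and 0.395 CPM in GFP-dsRNA libraries, and Cyp305a1 1.39, 2.41 and 2.23 CPM in 9G8-RNAi and 3.02, 2.45 and 1.23 CPM in GFP-dsRNA libraries. Cyp303a1, known from sensory bristles, was not tested. The other untested genes were 4 of the CYP3 clan, Cyp309a2, Cyp6t2Psi, Cyp28c1 and Cyp308a1, and 7 of the CYP4 clan, Cyp4d21, Cyp316a1, Cyp313a1, Cyp313a2, Cyp313a3, Cyp313a5 and Cyp4c3. Their means over the libraries were at most 0.381 CPM, and at most 1.75 CPM was reached in any 1 library. For a single library, a count of 0 allows up to 3 counts, or 0.0386 to 0.148 CPM in these libraries, which covers counting error only. Of the 12, 1 had under 3 counts in all libraries together.

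Other genes of the pathway were taken from 4 lists. Of the redox partners 7 were tested, with 0 higher and 0 lower in edgeR or DESeq2, and 0 had an unadjusted p under 0.05. Cpr measured 86.4, 39.7 and 91.6 CPM in 9G8-RNAi and 75.5, 95.1 and 64.8 CPM in GFP-dsRNA libraries and Cyt-b5 450.4, 607 and 349.7 CPM in 9G8-RNAi and 275, 335 and 658 CPM in GFP-dsRNA libraries, both with overlapping groups. On the mitochondrial side dare, the ferredoxin reductase, measured 7.48, 8.12 and 8.38 CPM in 9G8-RNAi and 10.6, 11.4 and 9.42 CPM in GFP-dsRNA libraries, lower in each 9G8-RNAi library, and Fdx1 7.72, 7.27 and 3.98 CPM in 9G8-RNAi and 4.59, 4.60 and 4.39 CPM in GFP-dsRNA libraries. Of 8 tested genes of heme synthesis and breakdown 0 passed in edgeR or DESeq2 and 1 had an unadjusted p under 0.05, with a median log2 fold change of -0.32. Alas, the enzyme of the first step of heme synthesis, measured 21.5, 18.3 and 21.9 CPM in 9G8-RNAi and 29.9, 34.8 and 56.2 CPM in GFP-dsRNA libraries, lower in each 9G8-RNAi library, with a log2 fold change of -0.97 ± 0.32 (SE; edgeR adjusted p 0.87).

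Regulators of the xenobiotic response gave 0 higher and 0 lower in edgeR or DESeq2 among 11 tested genes, of which 0 had an unadjusted p under 0.05, with a median log2 fold change of -0.19. The transcription factor gene cnc measured 130.3, 69.4 and 128 CPM in 9G8-RNAi and 97.8, 178 and 97.8 CPM in GFP-dsRNA libraries, and the gene of its inhibitor Keap1 13.8, 6.86 and 15.5 CPM in 9G8-RNAi and 7.90, 8.77 and 13.3 CPM in GFP-dsRNA libraries. The nuclear receptor gene Hr96 stood at 22.5, 16.2 and 15.6 CPM in 9G8-RNAi and 25.6, 21.8 and 20.02 CPM in GFP-dsRNA libraries. The groups of all 3 overlapped. Among 6 P450 genes of ecdysteroid synthesis that go by other names, shd alone was tested and 0 passed, and the other 5 stayed under 1 CPM in all libraries. shd, the mitochondrial enzyme of the last step to the active hormone, measured 5.09, 7.10 and 7.12 CPM in 9G8-RNAi and 3.29, 2.30 and 3.11 CPM in GFP-dsRNA libraries, higher in each 9G8-RNAi library, with a log2 fold change of 1.15 ± 0.29 (SE; edgeR adjusted p 0.39).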

How the data were processed

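RNA from 6 samples was enriched for polyA and sequenced, per the labels' protocols. The authors deposited 1 table per library of raw read counts with each gene's exon coordinates and length, per the file headers, and the values are whole numbers. Trimmomatic 0.36, STAR 2.5.2b and featureCounts (Subread 1.5.2) were used with the build BDGP6, per the submitters' processing notes. The strand setting, the handling of multi-mapping reads and the annotation are not stated in the labels used here, so reads of close copies, overlapping genes and antisense pairs may be assigned to the wrong gene. Symbols came from Ensembl release 115, which held 17137 of 17411 identifiers, and 218 older ones were named by position (80% reciprocal overlap) for marker and pathway lists. For 83 of the 84 P450 genes the deposited coordinates equal Ensembl's.

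Clans follow the standard assignment of insect P450 families. The main test was edgeR's robust quasi-likelihood test with filterByExpr and TMM (edgeR 4.0.16, R 4.3.3). The SE is the absolute log2 fold change over the square root of F. On simulated counts of 9285 genes for 9G8-RNAi against GFP-dsRNA, 4%, 38%, 86% and 90% of 50 genes each changed 2-, 4-, 8- and 16-fold were called, and 10 of 9085 unchanged genes. These counts were drawn independently for each gene, so no library stood apart over many genes as GFP-dsRNA replicate A did. The shares called may therefore be lower in the real libraries. DESeq2 1.42.0, limma-voom (limma 3.58.1), other scalings and filters, a block on the replicate letters and omission of single libraries were alternatives. Permutation tests were exact and two-sided. Tables were joined with Python 3.11.15.

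The P450 genes, gene lists and pairs were chosen with earlier results of these data known. Named genes are x16, the P450 genes past the threshold, the next 10 per direction by fold change, the 10 highest per kilobase, tested neighbours within 20 kb of a called gene and the tested mitochondrial clan. Other P450 genes and list members are named to complete subfamilies and lists and were chosen after their values were seen. No library repeated another: each pair gave a chi-square of 266 or more per degree of freedom.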

Additional observations from a re-analysis of the deposited data

How the results depend on the processing

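The P450 genes past the threshold numbered 1 higher and 1 lower with RLE factors, library sizes without the 20 genes with most counts, and a filter of over 1 CPM in 3 libraries. They numbered 2 and 0 with total counts only (Cyp12d1-d and Cyp6a8 higher), 3 and 3 with no low-count filter, 4 and 4 with DESeq2, and 0 and 0 with limma-voom. Without single libraries the higher ones ran from 0 to 3 and the lower ones from 0 to 1. With the replicate letters as a block, 0 and 0 passed and 0 of all genes. The labels do not say what the letters share. The correlations of deviations between same-letter libraries were -0.02, -0.35 and -0.46 for A, B and D, and no library correlated best with its own letter. Deviations from a group mean are tied to each other, so this check cannot tell whether a letter stands for a shared batch.

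The P450 genes whose groups do not overlap, 12 higher and 14 lower, numbered 6 and 6 with total counts only, an alternative chosen after seeing the data, and 13 to 21 and 14 to 20 without single libraries. Fewer libraries separate more easily. Without single libraries 37.5 to 51.4% of the tested P450 genes lay apart in either direction, against 13.1 to 28.3% of all tested genes. The x16 log2 fold change was 0.18 without GFP-dsRNA replicate D, and as low as -0.86 without 9G8-RNAi replicate B. The share differences ran from 43.5 to 49.005 percentage points for Cyp12d1-d and from -5.00 to -4.18 for Cyp6a17 without single libraries, and were 63.0 and -4.77 with counts divided by exon length. With the letters as pairs both had an exact sign-flip p of 0.25, the smallest that 3 pairs allow.

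No gene whose fold change changed sign had passed the threshold, and the cause was not tested. Without single libraries the log2 fold change ran from -3.43 to 2.09 for Cyp49a1, from -2.17 to 0.60 for Cyp304a1, from -1.38 to 0.14 for Cyp312a1 and from -1.44 to 0.41 for Cyp301a1, each above 0 with GFP-dsRNA replicate A left out and below 0 with any other library left out. It ran from -0.42 to 0.22 for Cyp6a23, from -0.076 to 0.34 for Cyp6d5, from -0.14 to 0.51 for Cyp6d4, from -0.28 to 1.36 for Cyp311a1 and from -0.47 to 0.67 for Cyp6a22. With total counts only Cyp6d5 (-0.15), Cyp6d4 (-0.16) and Cyp6a22 (-0.44) were negative, and with the block Cyp49a1 (0.41) and Cyp6a23 (0.000805) were above 0.

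Of the values of single P450 genes under alternatives, 480 kept their direction and side of the threshold, 13 were weaker, 13 stronger and 17 reversed. Depth limits the genes near 0: 12 P450 genes could not be tested.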
